A study of Homo sapiens with 9 samples.

Results

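The genes described here are 31 listed genes of the unfolded protein response, out of 58096 gene identifiers counted in each library. Of these, 16 belong to the branch governed by the transcription factor ATF4 and 15 to the endoplasmic reticulum (ER) part of the response. The rule takes them by name from a list and sets no threshold on measured values. The list was, however, chosen with earlier results of these data known, a limit on the shares of members called below. All 31 symbols were matched to counted identifiers through GENCODE release 29 on GRCh38. They were read in 9 polyA+ RNA-seq libraries of ALL-SIL, a human cell line from a T-cell acute lymphoblastic leukaemia that expresses the homeobox oncogene TLX1. The study set out to lower TLX1 and to compare expression with control cells. Cells of all 3 groups were electroporated with a siRNA, a short duplex RNA, and no library of cells without electroporation was analysed here. The groups are 3 libraries labelled TLX1 siRNA1, 3 labelled TLX1 siRNA2 and 3 labelled NTC, each numbered 1 to 3. What NTC stands for, which siRNA sequences were used, at which dose, and when cells were harvested is not stated in the labels, and the results come from 1 cell line. Whether equally numbered replicates were grown together is not stated either, and the p-values below reflect the spread among these libraries alone, which could be technical.

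The unfolded protein response adjusts a cell to misfolded protein in the ER, the compartment in which secreted and membrane proteins fold. Its sensors in the ER membrane are IRE1 (gene ERN1), PERK (gene EIF2AK3) and ATF6. Active IRE1 splices XBP1 mRNA, cleaved ATF6 moves to the nucleus, and both resulting factors raise chaperones and degradation factors of the ER. PERK phosphorylates the translation factor eIF2alpha, as do kinases that sense amino acid shortage, viral RNA or haem shortage. That slows protein synthesis in general and favours translation of ATF4 mRNA, so the ATF4 branch is shared with amino acid stress and is often called the integrated stress response. ATF4 protein is set largely by translation, which RNA counts do not show. XBP1 splicing cannot be read from gene counts.

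The libraries held between 58305492 and 99524663 gene counts. TLX1 stood at 402, 452 and 401 CPM (counts scaled to the library's gene counts) in the libraries labelled siRNA1, at 198, 225 and 185 CPM in those labelled siRNA2 and at 179, 168 and 183 CPM in those labelled NTC. It was higher, not lower, under the siRNA1 label than under the NTC label (log2 fold change 1.23, SE 0.10, edgeR adjusted p = 0.000449). It did not pass between the siRNA2 and NTC labels (0.19, SE 0.10, edgeR adjusted p = 1.0). The targeted gene goes against the siRNA1 label. Groups are therefore named as libraries labelled siRNA1, siRNA2 or NTC throughout, and no difference is attributed to a fall in TLX1. All 19 markers of T cells and cortical thymocytes, a list that includes TLX1 itself, had counts in every library. They summed to between 2971 and 3343 CPM. Markers of B and plasma cells summed to between 22.5 and 33.1 CPM, of myeloid cells to between 0.562 and 1.31 CPM and of erythroid cells to between 0.112 and 0.359 CPM. Markers of epithelial cells and fibroblasts summed to between 255 and 311 CPM. Among them VIM lay between 239 and 293 CPM and PDGFRB between 12.6 and 24.5 CPM. Among the T cell and thymocyte markers CD3E lay between 405 and 463 CPM, whereas CD2 reached at most 5.80 CPM and PTCRA at most 0.765 CPM. The myeloid markers S100A8 and S100A9 and the epithelial and fibroblast markers KRT18, KRT19 and DCN had no count in any library. In bulk RNA, fewer cells of a kind and less RNA per cell cannot be told apart.

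Levels are given in TPM (counts per kilobase of exon, scaled to the same total in each library). The length of a gene is that of its merged exons over all annotated transcripts, whichever of them the cells use. Levels of different genes can thus be compared only roughly. Over the 9 libraries the ER chaperones were the most abundant members together with ATF4 itself. CALR, the lectin-type chaperone calreticulin, averaged 711 ± 73.3 TPM (SD, n = 9), and its membrane-bound relative CANX averaged 387 ± 37.5 TPM. HSP90B1, the ER form of HSP90, averaged 386 ± 49.6 TPM, and HSPA5, the central ER chaperone BiP, averaged 269 ± 60.8 TPM. Folding genes were thus the most abundant members of the ER part.

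ATF4 averaged 644 ± 37.6 TPM and ranged from 580.1 to 689 TPM, so its highest library was 1.19 times its lowest. That was among the narrowest ranges of all 31 genes: of the members tested, only ATF6 had a smaller ratio, at 1.18. The sensors were far less abundant, with ERN1 at 45.2 ± 6.78 TPM, ATF6 at 32.2 ± 1.93 TPM and EIF2AK3 at 18.6 ± 1.37 TPM. XBP1, the factor that IRE1 activates, averaged 180.3 ± 15.1 TPM. The sensors and their factors were therefore expressed in every library, with modest spread.

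Members of the ATF4 branch covered a wider range of levels. Among the amino acid transport genes, SLC3A2 averaged 126 ± 8.39 TPM and its partner SLC7A5 89.5 ± 8.99 TPM, whereas SLC7A11, the cystine transporter, averaged 4.51 ± 1.11 TPM. The stress inhibitor of mTORC1 signalling DDIT4 averaged 115 ± 47.7 TPM, and SESN2, another such inhibitor, 13.2 ± 1.40 TPM. ASNS, asparagine synthetase, stood at 17.6 ± 2.49 TPM, and PSAT1, an enzyme of serine synthesis, at 0.944 ± 0.313 TPM. The low end also held ATF3 at 2.20 TPM, the glutathione-degrading enzyme CHAC1 at 1.82 TPM and the lipoprotein receptor VLDLR at 0.541 TPM. NUPR1, a stress-induced chromatin protein, had 0 to 3 counts per library and did not pass the filter on low counts, so 30 of the 31 genes were tested. PSAT1 had only 22 to 73 counts per library and CHAC1 42 to 145, which limits their precision. Counting error is small for the abundant members, such as ATF4 with 25086 to 46801 counts, but PCR copies were not marked by molecular identifiers, so counts overstate the number of molecules read.

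**Figure D1:**
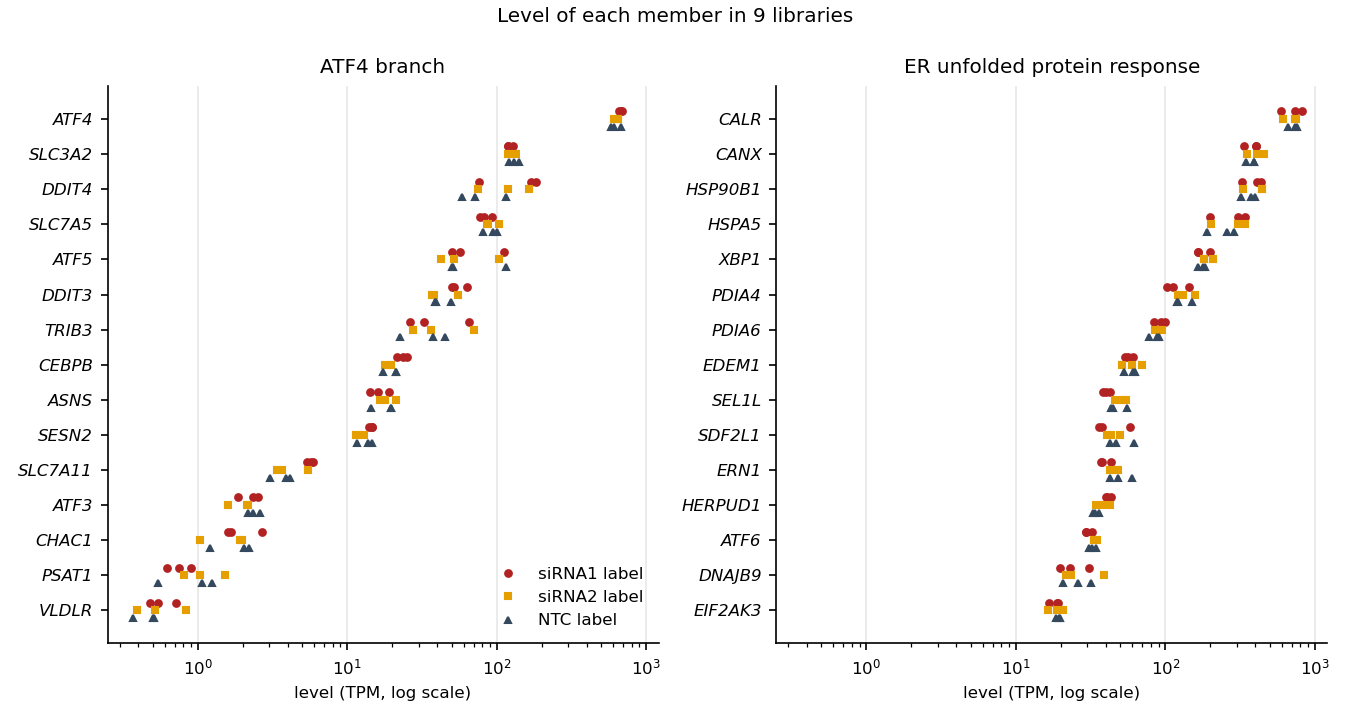
Level of 30 members in TPM on a log axis, with 1 point per library, by branch and by siRNA label (NUPR1, with 0 to 3 counts, is left out). CALR, ATF4, CANX and HSP90B1 lie at the right-hand end, VLDLR and PSAT1 at the left, and DDIT4, ATF5 and TRIB3 show the widest spread among members above 20 TPM.

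Because the libraries were counted without strand, reads on exon bases shared with another gene were set aside. Of the 31 members 15 share exon bases with another annotated gene, 14 of them with a gene on the opposite strand. Summing the deposited strand-specific counts brings such reads back, whichever gene they came from. That raised the count by more than 1.3 times in 5 members: 3.48 times in DDIT4, 1.78 in DDIT3, 1.67 in PDIA6, 1.54 in ATF5 and 1.47 in EIF2AK3. The TPM of these 5 genes may thus be too low, most of all for DDIT4, which shares 41.2% of its exon bases with DDIT4-AS1. ASNS shares 44.6% of its exon bases with AC079781.5 on the same strand, which no strand count can separate. Each result on these genes below was also computed on the summed counts.

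The promoters were examined for the elements through which the response is known to act. RefSeq windows (GRCh38.p14, 250 bases before to 50 after each start) were found for 29 of the 31 members. The ER stress response element, the site known for ATF6 and for XBP1 with the CCAAT-binding factor NF-Y, consists of CCAAT and CCACG 9 bases apart. On either strand it occurred in 27 of 35116 windows (0.0769%) and in 25 of 27305 genes (0.0916%). Of the 15 ER members 6 held it (CALR, CANX, HSP90B1, HSPA5, PDIA6 and XBP1), and of the 14 ATF4-branch members with a window 0 did. Both the element and the listed members were already known for this response, so these shares are a description and no test. The 250 bases before the HSPA5 start, on the minus strand at chr9:125241344-125241593, are shown because HSPA5 differed most of the ER members between replicate numbers. The element is in capitals here and in the lines that follow.

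HSPA5 promoter: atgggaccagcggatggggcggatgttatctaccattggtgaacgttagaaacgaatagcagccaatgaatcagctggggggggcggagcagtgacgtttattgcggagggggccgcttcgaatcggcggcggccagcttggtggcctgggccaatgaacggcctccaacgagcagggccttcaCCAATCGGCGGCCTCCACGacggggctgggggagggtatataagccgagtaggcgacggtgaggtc

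The same element in the other members is given with 10 bases on either side, so that its constant ends and free middle can be compared. HSP90B1 held 2 copies, on opposite strands. In CALR and in the second HSP90B1 copy the element reads on the other strand, so the printed capitals begin with CGTGG and end with ATTGG. The stretches lie at chr12:103930206-103930244 and chr12:103930311-103930349 (HSP90B1, plus strand), chr5:179698768-179698806 (CANX, plus), chr19:12938374-12938412 (CALR, plus), chr2:10812843-10812881 (PDIA6, minus) and chr22:28800593-28800631 (XBP1, minus).
HSP90B1 upstream copy: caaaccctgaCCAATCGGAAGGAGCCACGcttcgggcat
HSP90B1 downstream copy: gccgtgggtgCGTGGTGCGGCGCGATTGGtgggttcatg
CANX: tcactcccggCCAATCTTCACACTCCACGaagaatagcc
CALR: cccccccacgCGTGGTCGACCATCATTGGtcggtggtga
PDIA6: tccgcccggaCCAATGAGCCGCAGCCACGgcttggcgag
XBP1: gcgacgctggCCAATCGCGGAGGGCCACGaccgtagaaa

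The core of the element bound by ATF4 together with C/EBP factors, TGATGNAA, is much commoner. On either strand it occurred in 3.62% of windows and 4.46% of genes, in 4 of the 14 ATF4-branch members (ASNS, ATF3, CHAC1 and SLC3A2) and in 1 of the 15 ER members (HERPUD1). The full UPR element TGACGTGG occurred in 0.729% of windows and in 0 members. The windows of ATF5, TRIB3, DDIT3 and DDIT4, which are described by replicate number below, held 0 of the 3 elements. That says only that these letters are not in these windows. CHAC1, which also differed between replicate numbers, does hold the ATF4 core. The stretches below show the ATF4 core in capitals, which reads on the other strand in CHAC1 and HERPUD1. In SLC3A2 the core lies 38 to 45 bases after the start and is not shown. The stretches lie at chr7:97872459-97872486 (ASNS, minus strand), chr1:212565206-212565233 (ATF3, plus), chr15:40953252-40953279 (CHAC1, plus) and chr16:56931956-56931983 (HERPUD1, plus).
ASNS: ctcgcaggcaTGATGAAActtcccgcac
ATF3: aaggtcaggaTGATGGAAggctgtcata
CHAC1: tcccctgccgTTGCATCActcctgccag
HERPUD1: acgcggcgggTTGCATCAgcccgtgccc

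Several of these genes differed with the replicate number, 1 to 3 in each group. Libraries with the same number and different labels deviated together from their group means, although the labels do not say what a number stands for. A fit with label and number as terms was used to compare libraries numbered 1 with those numbered 2 and 3, and those numbered 2 with those numbered 3. Of the 15 ER members 11 had their lowest library among those numbered 1, of which 8 in siRNA1 replicate 1, and 12 had their highest among those numbered 3. The same counts were not made over all genes, so whether they are particular to these members is not known. Summed over the 15, the level was 2090.4, 2188.2 and 2270.7 TPM in the libraries numbered 1 labelled siRNA1, siRNA2 and NTC. It was 2527.5, 2605.3 and 2402.6 TPM in those numbered 2 and 2736.1, 2783.7 and 2549.8 TPM in those numbered 3. On this sum, in which CALR, CANX, HSP90B1 and HSPA5 weigh most, the 3 libraries numbered 1 lay below the 6 others. The median over the 15 did not set them apart. In the same label order it was 55.8, 59.6 and 52.5 TPM in the libraries numbered 1. It was 53.5, 51.1 and 62.3 TPM in those numbered 2 and 60.8, 69.8 and 62.0 TPM in those numbered 3.

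Of the 30 members tested, 9 passed between the libraries numbered 1 and those numbered 2 and 3, which is 30%. Of all 18554 genes tested 21.3% passed in the same comparison, and the difference in share was not tested. The share over all genes depends on how many low-count genes are kept. With the filter of 1 CPM in 3 libraries, 3556 of 12808 genes passed. The members that passed were 8 lower and 1 higher than the mean of the libraries numbered 2 and 3. The median log2 fold change was −0.09 over the 15 ER members and −0.07 over the 15 tested ATF4-branch members, against −0.0063 over all genes. Mitochondrially encoded genes moved with this contrast. Of the 13, 12 were higher in the libraries numbered 1, where they summed to 50208 to 54186 CPM, against 40603 to 49751 CPM in those numbered 2 and 38846 to 43208 CPM in those numbered 3. Of the 19 T cell and thymocyte markers 6 were higher and 5 lower there (57.9% called). The lower ones included PTCRA at −1.97, RAG1 at −1.16 and RAG2 at −1.04 on the log2 scale. Of 6 B and plasma cell markers tested 3 were higher and 2 lower. The part of these genes in the members' differences was not tested.

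HSPA5 (ENSG00000044574.7, chr9:125234853-125241330) gave the clearest of these differences. It stood at 199, 201 and 188 TPM in the libraries numbered 1 labelled siRNA1, siRNA2 and NTC. In those numbered 2 it stood at 304, 305 and 258 TPM, and in those numbered 3 at 343, 341 and 286 TPM. The libraries numbered 1 were the 3 lowest, with no overlap, and within each number the NTC library was the lowest. HSPA5 was 1.47-fold lower in the libraries numbered 1 (log2 fold change −0.56, SE 0.06, edgeR adjusted p = 3.46e-07). Its call held in all 9 fits that left out 1 library.

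HSP90B1 (chr12:103930107-103953645) stood at 326, 331 and 322 TPM in the libraries numbered 1. Those numbered 2 and 3 lay between 374 and 440.3 TPM, all above them. It was 1.20-fold lower in the libraries numbered 1 (log2 fold change −0.27, SE 0.06, edgeR adjusted p = 0.00145). CANX showed a smaller gap, with 343 ± 6.39 TPM in the 3 libraries numbered 1 against 408 ± 23.6 TPM in the 6 others (SD), and no overlap. Its log2 fold change was −0.17 (SE 0.05, edgeR adjusted p = 0.0307). DNAJB9, an ER co-chaperone of HSPA5 that is a target of XBP1, stood at 19.8, 21.8 and 20.7 TPM in the libraries numbered 1. In those numbered 2 it lay between 23.0 and 26.2 TPM, and in those numbered 3 between 30.9 and 38.7 TPM. The 3 sets did not overlap. DNAJB9 was lower in the libraries numbered 1 (log2 fold change −0.38, SE 0.07, edgeR adjusted p = 0.000213).

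SDF2L1, a component of ER chaperone complexes, was the fifth ER member that passed (log2 fold change −0.22, SE 0.08, edgeR adjusted p = 0.0374). Its libraries numbered 1 lay between 35.8 and 42.4 TPM and overlapped the others, which lay between 37.4 and 62.0 TPM. The calls of HSPA5, HSP90B1 and DNAJB9 held in every fit that left out 1 library. CANX lost its call without siRNA1 replicate 1, siRNA1 replicate 2, siRNA2 replicate 1, siRNA2 replicate 2 or NTC replicate 3, with adjusted p up to 0.268. SDF2L1 lost it without siRNA1 replicate 1 or 3, siRNA2 replicate 1 or 2, or NTC replicate 1 or 3, with adjusted p up to 0.262. The other 10 ER members did not pass, among them CALR (−0.13, called without NTC replicate 1 or 2), XBP1 (0.03) and the sensors ATF6 (0.04), ERN1 (0.05) and EIF2AK3 (0.13, with 0.16 and a call on the summed strand counts).

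In the ATF4 branch 4 of 15 tested members passed. ASNS stood at 14.2, 16.4 and 14.3 TPM in the libraries numbered 1, against 16.0 to 21.2 TPM in the others, and overlapped them (log2 fold change −0.25, SE 0.06, edgeR adjusted p = 0.00468). CHAC1 stood at 1.68, 1.03 and 1.20 TPM in the libraries numbered 1, against 1.61 to 2.69 TPM in the others, with overlap. Its log2 fold change was −0.57 (SE 0.17, edgeR adjusted p = 0.0221). ATF5 was lower in them than the mean of those numbered 2 and 3 (log2 fold change −0.36, SE 0.06, edgeR adjusted p = 0.00013). Only the libraries numbered 2, at 103 to 115 TPM, lay above them. The libraries numbered 1, at 50.7 to 57.1 TPM, all lay above those numbered 3, at 42.4 to 49.9 TPM. DDIT4 stood at 169, 165 and 71.9 TPM in the libraries numbered 1 labelled siRNA1, siRNA2 and NTC, at 76.0, 74.6 and 58.3 TPM in those numbered 2 and at 183, 119 and 115 TPM in those numbered 3. Only under the siRNA2 label was the library numbered 1 the highest, and under the NTC label it lay well below that numbered 3. In the fit DDIT4 was higher in the libraries numbered 1 (log2 fold change 0.47, SE 0.11, edgeR adjusted p = 0.0029). On the summed strand counts its log2 fold change was 0.57. DDIT4 lost its call without siRNA2 replicate 1 (edgeR adjusted p = 0.0593) and under DESeq2, and ASNS without NTC replicate 1 (adjusted p = 0.0858). CHAC1 lost its call without siRNA1 replicate 2, siRNA2 replicate 1, siRNA2 replicate 3, NTC replicate 1 or NTC replicate 3, with adjusted p up to 0.124. Call counts without each library are given in the closing section.

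Between the libraries numbered 2 and those numbered 3, 12 of 30 members passed (40%), against 20.6% of all genes tested, and the difference in share was not tested. With the filter of 1 CPM in 3 libraries, 3580 of 12808 genes passed. In the ATF4 branch 5 were higher in the libraries numbered 2 and 1 was lower. In the ER part 3 were higher and 3 lower, and the higher ones there were the sensors ERN1 and ATF6 and the degradation factor SEL1L. Of the 13 mitochondrially encoded genes 7 were higher in the libraries numbered 2. Of the 19 T cell and thymocyte markers 3 were higher and 8 lower (57.9% called), with CD1A at −0.93, CD1B at −0.70 and DNTT at −0.56 on the log2 scale. The part of either in these differences was not tested. The median log2 fold change was 0.06 over the tested ATF4-branch members and −0.08 over the ER members, against −0.011 over all genes.

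ATF5 (ENSG00000169136.9, chr19:49928702-49933935), a transcription factor of the branch that is itself induced by stress, stood at 111, 103 and 115 TPM in the libraries numbered 2 labelled siRNA1, siRNA2 and NTC. In those numbered 3 it stood at 49.9, 42.4 and 49.9 TPM, and in those numbered 1 at 57.1, 51.6 and 50.7 TPM. The 3 libraries numbered 2 stood apart from the 6 others, whatever their label. ATF5 was 2.45-fold higher in the libraries numbered 2 than in those numbered 3 (log2 fold change 1.29, SE 0.07, edgeR adjusted p = 8.48e-11). On the summed strand counts the log2 fold change was 1.06 (edgeR adjusted p = 2.9e-09).

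TRIB3 (ENSG00000101255.10, chr20:362835-397559), a pseudokinase that restrains the branch, stood at 65.1, 70.3 and 45.0 TPM in the libraries numbered 2, against 26.4, 27.7 and 22.7 TPM in those numbered 3. All libraries numbered 2 lay above all those numbered 3, and the libraries numbered 1 lay between them at 32.7, 36.3 and 37.7 TPM. TRIB3 was 2.47-fold higher in the libraries numbered 2 (log2 fold change 1.31, SE 0.11, edgeR adjusted p = 5.86e-08). DDIT3, which encodes the factor CHOP, stood at 63.7, 55.4 and 49.2 TPM in the libraries numbered 2 labelled siRNA1, siRNA2 and NTC, against 50.0, 37.0 and 39.2 TPM in those numbered 3. The sets overlapped, but within each label the library numbered 2 was the higher one. Its log2 fold change was 0.50 (SE 0.08, edgeR adjusted p = 0.000207). On the summed strand counts it was 0.33.

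DDIT4 (ENSG00000168209.4, chr10:72273920-72276036) ran the other way. It stood at 76.0, 74.6 and 58.3 TPM in the libraries numbered 2, against 183, 119 and 115 TPM in those numbered 3. These did not overlap, and DDIT4 was 1.88-fold lower in the libraries numbered 2 (log2 fold change −0.91, SE 0.13, edgeR adjusted p = 4.41e-05). On the summed strand counts its log2 fold change was −0.78. ATF5, TRIB3, DDIT3 and DDIT4 kept their calls in all 9 fits that left out 1 library. Among the transporters, SLC7A5 averaged 98.9 ± 5.72 TPM in the libraries numbered 2 against 86.2 ± 8.77 TPM in those numbered 3 (log2 fold change 0.28, SE 0.07, edgeR adjusted p = 0.00759). SLC3A2 averaged 135 ± 6.60 TPM against 123 ± 7.20 TPM (SD, log2 fold change 0.21, SE 0.06, edgeR adjusted p = 0.018). Both were called, but SLC7A5 lost its call without siRNA1 replicate 3 or siRNA2 replicate 2, and SLC3A2 without those or siRNA1 replicate 2, with adjusted p up to 0.0755 and 0.142. ATF4 mRNA itself differed little between these libraries (log2 fold change 0.03, SE 0.07, edgeR adjusted p = 0.791).

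**Figure D2:**
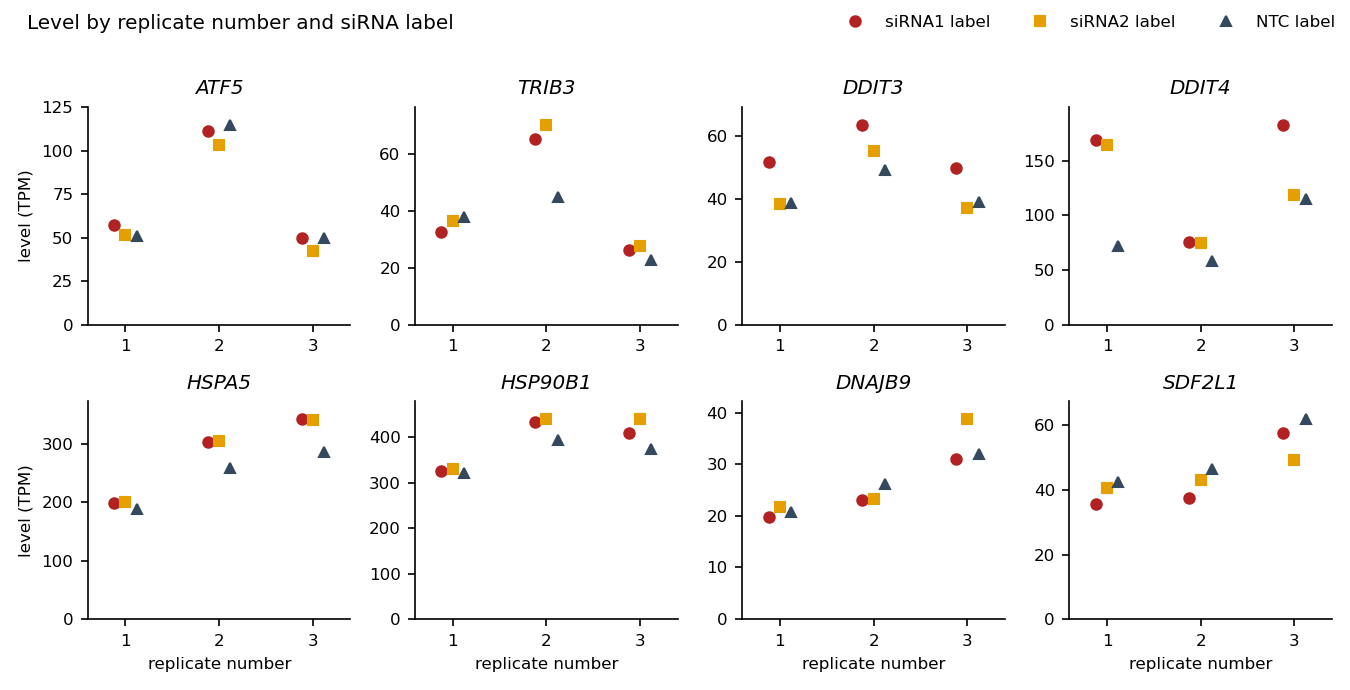
Level in TPM of 8 members by replicate number, with 1 point per library, its colour and shape giving the siRNA label. ATF5 and TRIB3 are high in the 3 libraries numbered 2 and DDIT4 is low there, while HSPA5, HSP90B1 and DNAJB9 are lowest in the 3 libraries numbered 1.

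In the ER part ERN1 was higher in the libraries numbered 2, at 43.1, 48.5 and 59.3 TPM, against 37.4, 42.4 and 42.7 TPM in those numbered 3. These did not overlap (log2 fold change 0.37, SE 0.06, edgeR adjusted p = 0.00028). DNAJB9 was lower in them (log2 fold change −0.40, SE 0.07, edgeR adjusted p = 0.000637). Both calls held in every fit that left out 1 library. SDF2L1 averaged 42.4 ± 4.66 TPM in the libraries numbered 2 against 56.3 ± 6.40 TPM in those numbered 3 (log2 fold change −0.34, SE 0.09, edgeR adjusted p = 0.00796). It lost its call without siRNA1 replicate 2 or 3, with adjusted p up to 0.0858. PDIA4, an ER disulfide isomerase, averaged 121 ± 9.40 TPM against 150.7 ± 6.56 TPM, with no overlap (log2 fold change −0.24, SE 0.07, edgeR adjusted p = 0.0142). It lost its call without siRNA1 replicate 3, NTC replicate 2 or NTC replicate 3, with adjusted p up to 0.0918.

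The last of the called ER members, ATF6 and SEL1L, had log2 fold changes of 0.19 each (SE 0.06 each, edgeR adjusted p = 0.0322 and 0.0408). Both sets overlapped. ATF6 lost its call in 5 of the 9 fits that left out 1 library (each siRNA1 library, siRNA2 replicate 2 and NTC replicate 3). SEL1L lost it in 7, all except those without siRNA2 replicate 1 or 3. Adjusted p then reached 0.226 and 0.242. Both calls were also lost with library size alone and without the filter on low counts. HSPA5, HSP90B1, CALR and CANX did not pass between the libraries numbered 2 and 3, at −0.08, 0.14, −0.03 and 0.04, though HSP90B1 did without NTC replicate 2. PDIA6 did not pass either (−0.11), but did on the summed strand counts (−0.17, edgeR adjusted p = 0.0472). The low HSPA5 level was thus seen in the libraries numbered 1, and the high ATF5 and TRIB3 levels in those numbered 2.

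**Figure D3:**
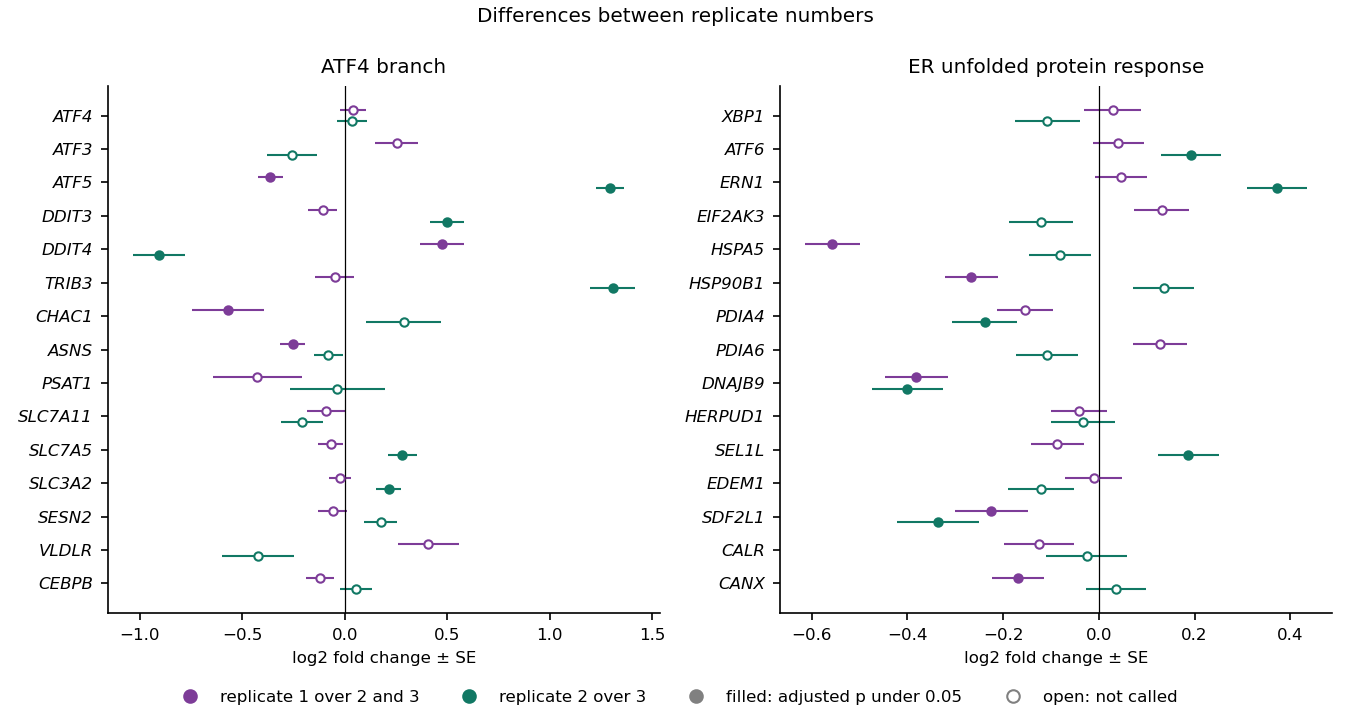
Log2 fold change between replicate numbers for 30 members, with bars of 1 SE. Filled points passed at an adjusted p under 0.05. ATF5 and TRIB3 (1.29 and 1.31) and DDIT4 (−0.91) are farthest from 0 for replicate 2 over 3, and among ER members HSPA5 (−0.56) is farthest for replicate 1 over 2 and 3.

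The comparison the study was built for is that of the siRNA labels. Without the replicate number in the fit, 0 of 30 members passed between any labels. Between the siRNA1 and NTC labels 1.28% of all 18554 genes passed, between siRNA2 and NTC 0%, between siRNA1 and siRNA2 1.08% and between both TLX1 siRNA labels, weighted equally, and NTC 0.0162%. At an unadjusted p under 0.05, 7, 0, 4 and 3 of the 30 members passed in these 4 comparisons. Of all 18554 genes 1904, 392, 1863 and 970 did. DESeq2 called 2 members between siRNA1 and NTC (SLC7A11 and HERPUD1) and limma-voom 0. With no filter beyond 1 count, edgeR called 2 members between siRNA1 and NTC (DDIT4 and SLC7A11) and 1 in each of the other comparisons. Between siRNA2 and NTC 0 genes passed by edgeR with the filter or by limma-voom, 15 passed by edgeR without the filter and 4 by DESeq2, and 392 had an unadjusted p under 0.05. The comparisons of siRNA1 and of siRNA2 with NTC share the same NTC libraries.

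With the replicate number as a block, which takes out the shared differences described above, 8 of 30 members passed between the siRNA1 and NTC labels (26.7%), against 11.4% of all genes. Of them 6 were higher and 2 lower under the siRNA1 label. Of the 19 T cell and thymocyte markers 3 were higher there, TLX1 among them, and 9 were lower (63.2% called, against 11.4% of all genes). Their part in the members' differences was not tested. Between siRNA2 and NTC 0 members passed, against 0.151% of all genes. An unadjusted p under 0.05 was found for 6 of the 30 members and for 1553 of all 18554 genes. Between siRNA1 and siRNA2 6 passed (20%), against 10.6% of all genes. Between both TLX1 siRNA labels and NTC 4 passed (13.3%), against 3.92% of all genes. The members' shares were above those of genes in general in 3 of these comparisons, and the difference in share was not tested. Genes in general include many with low counts, whereas most members are abundant. Shares among genes of like level were not computed.

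SLC7A11 (ENSG00000151012.13, chr4:138164097-138242349), which imports cystine for glutathione synthesis, stood at 5.95, 5.36 and 5.73 TPM in the libraries labelled siRNA1. It stood at 3.64, 3.39 and 5.44 TPM in those labelled siRNA2 and at 3.03, 3.89 and 4.17 TPM in those labelled NTC. All siRNA1 libraries lay above all NTC libraries, while the siRNA2 library numbered 3 lay within the siRNA1 range. With the block it was 1.56-fold higher under the siRNA1 than the NTC label (log2 fold change 0.64, SE 0.10, edgeR adjusted p = 0.000159; without the block 0.63, adjusted p = 0.0754). It was 1.43-fold higher under the siRNA1 than the siRNA2 label (log2 fold change 0.51, SE 0.10, edgeR adjusted p = 0.00188), a call lost without siRNA1 replicate 1 (adjusted p = 0.0658). Between siRNA2 and NTC it did not pass (0.13, SE 0.11, edgeR adjusted p = 0.805).

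DDIT4 stood at 169, 76.0 and 183 TPM in the libraries labelled siRNA1, at 165, 74.6 and 119 TPM in those labelled siRNA2 and at 71.9, 58.3 and 115 TPM in those labelled NTC. The groups overlapped, yet at each replicate number both TLX1 siRNA libraries lay above the NTC library. With the block it was 1.69-fold higher under the siRNA1 than the NTC label (log2 fold change 0.75, SE 0.13, edgeR adjusted p = 0.000231; without it 0.81, adjusted p = 0.421). Under the siRNA2 label the difference from NTC was 0.51 (SE 0.13, edgeR adjusted p = 0.12) and did not pass. On the summed strand counts it passed under both labels, with log2 fold changes of 0.84 (edgeR adjusted p = 6.3e-06) and 0.62 (edgeR adjusted p = 0.0081). Between the siRNA1 and siRNA2 labels DDIT4 did not pass (0.24, SE 0.13, edgeR adjusted p = 0.248), but it did without siRNA1 replicate 2 (0.36) and without siRNA2 replicate 1 (0.45). Its call between siRNA2 and NTC appeared also in the fits without siRNA1 replicate 2 and without NTC replicate 3.

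DDIT3 (ENSG00000175197.11, chr12:57516588-57521737) stood at 51.8, 63.7 and 50.0 TPM in the libraries labelled siRNA1, at 38.3, 55.4 and 37.0 TPM in those labelled siRNA2 and at 38.7, 49.2 and 39.2 TPM in those labelled NTC. The siRNA1 libraries lay above the NTC libraries without overlap. With the block the log2 fold change was 0.39 against NTC (SE 0.08, edgeR adjusted p = 0.00194) and 0.38 against siRNA2 (SE 0.08, edgeR adjusted p = 0.00306). On the summed strand counts these were 0.29 and 0.28, both called. CEBPB, a C/EBP family factor that pairs with ATF4, averaged 23.4 ± 1.65 TPM under the siRNA1 label, 19.0 ± 1.05 TPM under the siRNA2 label and 20.0 ± 2.27 TPM under the NTC label (SD, n = 3 each). Its siRNA1 libraries lay above all others. Its log2 fold change was 0.24 against NTC (SE 0.08, edgeR adjusted p = 0.0476) and 0.33 against siRNA2 (SE 0.08, edgeR adjusted p = 0.00803). The call against NTC was lost in 8 of the 9 fits that left out 1 library, all but that without siRNA2 replicate 3, with adjusted p up to 0.241. The call against siRNA2 was lost without siRNA1 replicate 1 (adjusted p = 0.0835).

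SESN2 passed between the siRNA1 and siRNA2 labels only in the fit with the block (log2 fold change 0.30, SE 0.08, edgeR adjusted p = 0.0201). It averaged 14.4 ± 0.337 TPM under the siRNA1 label and 12.0 ± 0.829 TPM under the siRNA2 label (SD, n = 3 each), without overlap. The call was lost without siRNA1 replicate 1, siRNA1 replicate 3 or siRNA2 replicate 3, with adjusted p up to 0.186. The other tested members of the branch did not pass between any labels with the block. Among them were ATF4 (0.13 for siRNA1 and 0.01 for siRNA2, each against NTC), ATF5 (0.05 and −0.14), TRIB3 (0.19 and 0.27), ASNS (−0.11 and 0.04) and ATF3 (−0.08 and −0.30), all as log2 fold changes. Over the 15 tested members the median log2 fold change with the block was 0.13 for siRNA1 and 0.01 for siRNA2 against NTC, while over all genes it was 0.0049 and −0.0039. TRIB3 passed in the fits without NTC replicate 1, with log2 fold changes of 0.40 for siRNA1 against NTC, 0.48 for siRNA2 against NTC and 0.44 for both. CHAC1 and PSAT1 passed between siRNA1 and siRNA2 without siRNA1 replicate 3 and without siRNA2 replicate 2.

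**Figure D4:**
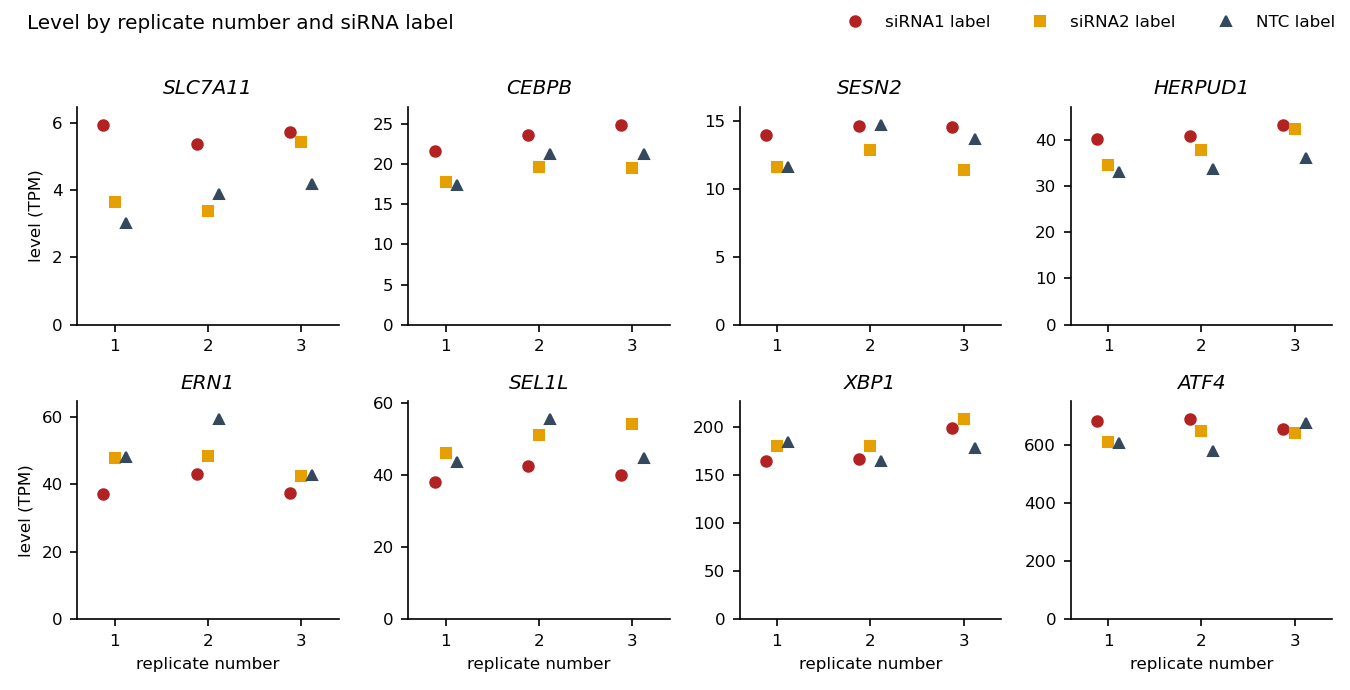
Level in TPM of 8 members by replicate number, with 1 point per library, its colour and shape giving the siRNA label. SLC7A11, CEBPB and HERPUD1 are higher in the siRNA1 than in the NTC library at each number, ERN1 and SEL1L are lower, and ATF4 spans only 580.1 to 689 TPM.

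In the ER part HERPUD1 (chr16:56932048-56944863), a membrane protein of ER-associated degradation, stood at 40.2, 40.9 and 43.3 TPM under the siRNA1 label. It stood at 34.5, 37.8 and 42.3 TPM under the siRNA2 label and at 32.9, 33.7 and 36.1 TPM under the NTC label. The siRNA1 and NTC libraries did not overlap. With the block the log2 fold change was 0.29 for siRNA1 against NTC (SE 0.07, edgeR adjusted p = 0.00585), a call lost without siRNA1 replicate 1 (adjusted p = 0.0837). HSPA5 averaged 282 ± 74.4 TPM under the siRNA1 label and 244 ± 50.4 TPM under the NTC label (SD, n = 3 each), with overlap. At each replicate number its siRNA1 library was the higher, and with the block its log2 fold change was 0.20 (SE 0.06, edgeR adjusted p = 0.0494). That call was lost without siRNA2 replicate 1, NTC replicate 2, NTC replicate 3 or any siRNA1 library, with adjusted p up to 0.235. HSPA5 did not pass for siRNA2 against NTC (0.18, SE 0.06, edgeR adjusted p = 0.398).

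The sensor gene ERN1 (ENSG00000178607.15, chr17:64039142-64130819) was lower under the siRNA1 label. It stood at 37.3, 43.1 and 37.4 TPM in the libraries labelled siRNA1, at 47.8, 48.5 and 42.4 TPM in those labelled siRNA2 and at 48.1, 59.3 and 42.7 TPM in those labelled NTC. At each number the siRNA1 library was below both others, although the groups overlapped by 1 siRNA1 library. With the block the log2 fold change was −0.33 against NTC (SE 0.06, edgeR adjusted p = 0.000874). Against siRNA2 it was −0.21 (SE 0.06, edgeR adjusted p = 0.037), a call lost without siRNA1 replicate 1 or 2, siRNA2 replicate 1 or 2, or NTC replicate 1, with adjusted p up to 0.309.

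SEL1L, the scaffold of an ER-associated degradation ligase, stood at 38.1, 42.5 and 39.9 TPM under the siRNA1 label. It stood at 46.2, 51.1 and 54.1 TPM under the siRNA2 label and at 43.5, 55.5 and 44.7 TPM under the NTC label. The siRNA1 libraries were the 3 lowest of 9. With the block the log2 fold change was −0.24 against NTC (SE 0.06, edgeR adjusted p = 0.016) and −0.30 against siRNA2 (SE 0.06, edgeR adjusted p = 0.00297). The call against NTC was lost without any siRNA1 library or without NTC replicate 1 or 2, with adjusted p up to 0.089; that against siRNA2 held in all 9 such fits. XBP1, ATF6, EIF2AK3, PDIA4, PDIA6, DNAJB9, EDEM1, SDF2L1, CALR, CANX and HSP90B1 did not pass between any labels with the block. Their log2 fold changes for siRNA1 against NTC lay between −0.21 (SDF2L1, called without siRNA2 replicate 3) and 0.12 (PDIA6). Of the 6 members whose promoter window held the ER stress response element, HSPA5 alone passed between the siRNA1 and NTC labels with the block. In that fit 11.4% of all genes passed, and the HSPA5 call did not hold in every fit that left out 1 library. Whether the element plays a part was not tested.

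For both TLX1 siRNA labels against NTC with the block, DDIT4 (log2 fold change 0.63, edgeR adjusted p = 0.00138), SLC7A11 (0.38, edgeR adjusted p = 0.0175) and HERPUD1 (0.21, edgeR adjusted p = 0.0437) were higher. ERN1 was lower (−0.23, edgeR adjusted p = 0.0156). The call of DDIT4 held in all 9 fits that left out 1 library. SLC7A11 lost its call without siRNA1 replicate 1, siRNA2 replicate 3 or NTC replicate 1, with adjusted p up to 0.162. ERN1 lost it without siRNA1 replicate 1, NTC replicate 1 or NTC replicate 2, with adjusted p up to 0.103. HERPUD1 lost it without siRNA1 replicate 1 or 2, siRNA2 replicate 2 or any NTC library, with adjusted p up to 0.218. Without NTC replicate 1, TRIB3 and HSPA5 passed.

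**Figure D5:**
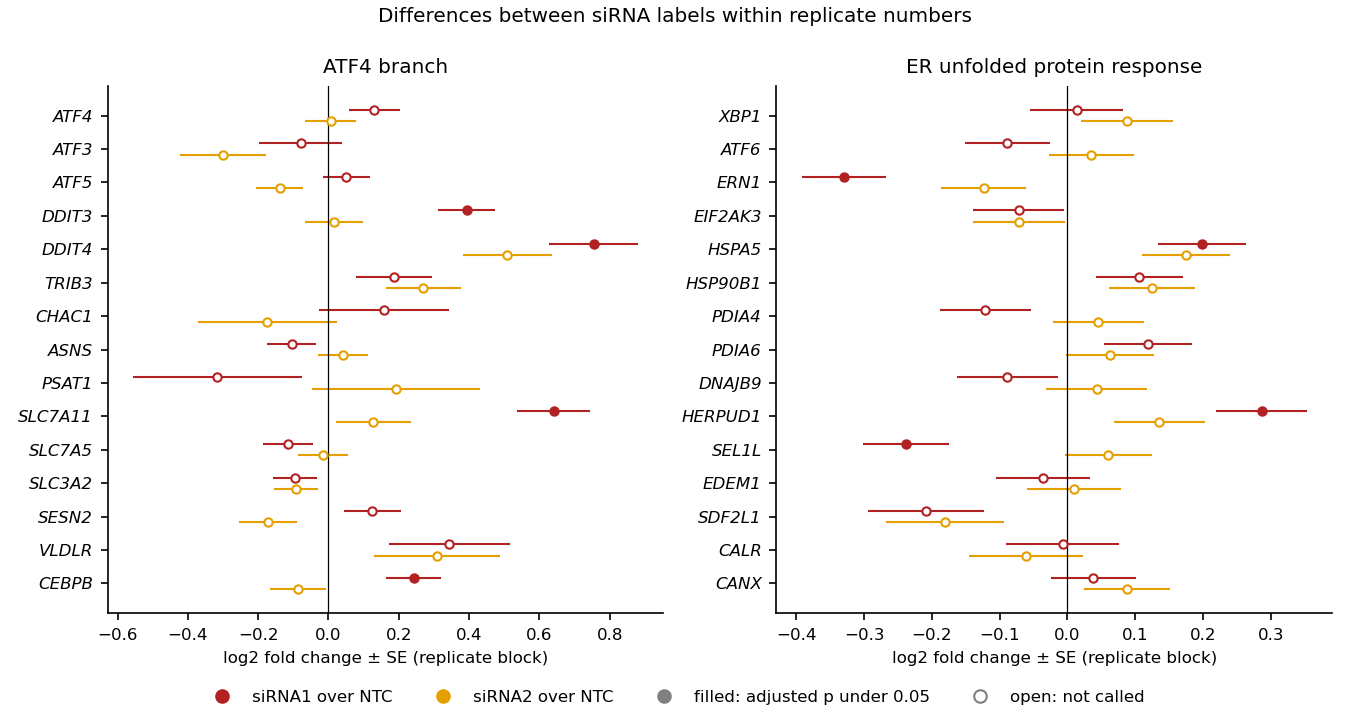
Log2 fold change of the libraries labelled siRNA1 and siRNA2 over those labelled NTC for 30 members, with the replicate number as a block and bars of 1 SE. Filled points passed at an adjusted p under 0.05: SLC7A11, DDIT4, DDIT3 and CEBPB in the ATF4 branch and HERPUD1, HSPA5, ERN1 and SEL1L in the ER part, all for siRNA1.

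Other genes of the same pathways were read from lists. Of 13 genes for eIF2alpha kinases, phosphatases and the exchange factor eIF2B, 0 passed between siRNA1 and NTC without the block, and 1 was higher and 1 lower with it (15.4%, against 11.4% of all genes). The higher one was PPP1R15A (log2 fold change 0.51, edgeR adjusted p = 3.08e-05), the stress-induced phosphatase subunit GADD34 that reverses eIF2alpha phosphorylation. The lower one was its constitutive relative PPP1R15B (−0.21, edgeR adjusted p = 0.029). PPP1R15A was also higher in the libraries numbered 2 than in those numbered 3 (0.64, edgeR adjusted p = 3.27e-06). So were PPP1R15B and the eIF2B subunit EIF2B4 (23.1% of the list called, against 20.6% of all genes). Between the libraries numbered 1 and the others 1 was higher and 1 lower (15.4%, against 21.3% of all genes).

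Of 44 other ATF4 targets 36 were tested. Between siRNA1 and NTC 0 passed without the block, and with it 1 was higher and 0 were lower (2.78%, against 11.4% of all genes). The higher one was the transcription factor gene JDP2 (0.51, edgeR adjusted p = 0.000462). In the libraries numbered 2 against 3, 5 were higher and 6 lower (30.6%, against 20.6% of all genes). They included the tryptophanyl-tRNA synthetase WARS (0.52) and CREB3L1 (0.89), which were higher, and PHGDH of serine synthesis (−0.45) and the alanyl-tRNA synthetase AARS (−0.40), which were lower. The wider ATF4 targets thus did not move in 1 direction with ATF5 and TRIB3. Between the libraries numbered 1 and the others 4 were higher and 6 lower (27.8%, against 21.3% of all genes).

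Of 70 other ER folding and degradation genes 64 were tested. Without the block 0 were higher and 2 lower between siRNA1 and NTC (3.12%, against 1.28% of all genes). With it 1 was higher and 4 were lower (7.81%, against 11.4% of all genes). The 2 lower without the block were MZB1 (log2 fold change −0.82, edgeR adjusted p = 0.0011), an ER co-chaperone of lymphoid cells, and SEC63. SEC63 (−0.60, edgeR adjusted p = 0.00176) helps move proteins into the ER. Both were also lower under the siRNA1 than the siRNA2 label, as was the ubiquitin-conjugating enzyme UBE2J1 (−0.45, edgeR adjusted p = 0.0161). Between the libraries numbered 1 and the others 6 were higher and 8 lower. That is 21.9% of the list, close to the 21.3% of all genes. ERO1B, an ER oxidase gene, was among the lower ones at −2.43 (edgeR adjusted p = 7.93e-08). In the libraries numbered 2 against 3, 3 of the list were higher and 10 lower (20.3%, against 20.6% of all genes). Of 16 cytosolic heat shock genes, 0 passed between labels without the block. With it 1 was higher (BAG3, 0.28) and 5 were lower between siRNA1 and NTC (37.5%, against 11.4% of all genes). In the libraries numbered 1, 1 was higher and 6 were lower (43.8%, against 21.3%). In those numbered 2 against 3, 2 were higher and 2 lower (25%, against 20.6%). None of these differences in share was tested.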

How the data were processed

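PolyA+ RNA of 9 ALL-SIL libraries was sequenced with an unstranded kit, per the labels. The deposited files hold raw read counts per gene in 1 unstranded and 2 strand-specific columns, and the authors' unstranded count was used. The submitters' processing notes name GRCh38, and neither aligner nor annotation is given in the sources used here. Symbols and exon lengths came from GENCODE 29, and 608 of 58096 identifiers, with 0.0317% of counts, were unmatched. Between 75.5% and 77.6% of reads were counted in genes, and reads that mapped to several places (4.90% to 5.44%) were not.

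Genes were tested with edgeR 4.0.16 (quasi-likelihood, TMM factors, filterByExpr with a minimum count of 10 and total of 15, R 4.3.3) over all 9 libraries. Benjamini-Hochberg adjustment ran over 18554 genes with a threshold of 0.05, and SE is the fold change divided by the root of F. The fit with the replicate number added is the block fit, and the replicate comparisons come from it. Same-numbered libraries of different labels had correlated deviations from their group means (r 0.383 to 0.623 over 9 pairs, −0.445 to 0.0693 over 18 others). Deviations from a group mean cancel out within the group, so positive values in the 9 pairs push the 18 others towards negative ones. The 18 are thus no independent contrast. That the numbers pair the samples rests on the positive values of the 9 pairs.

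The members and lists were chosen with earlier results of these data known. All members are named, and from each other list up to 4 called genes per comparison with the smallest adjusted p. Promoters came from RefSeq. Alternatives were no filter, a filter of 1 CPM in 3 libraries, library size, RLE factors, DESeq2 1.42.0, limma 3.58.1, summed strand columns, 2 groups only, no group term and libraries left out. Leave-one-out and summed-strand fits with the block, and summed-strand fits of the replicate comparisons, were added after seeing the data. The fit of siRNA1 against NTC without the block and that of replicate 2 against 3 were tested on simulated data. The simulated counts for the label fit held no differences between replicate numbers. The label fit with the block was not simulated.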

Additional observations from a re-analysis of the deposited data

Results flagged for a closer look

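The effects of the siRNA1 and siRNA2 labels differed from each other in 6 of 30 members tested (20%), against 10.6% of all genes. The edgeR test was of siRNA1 directly against siRNA2, with the replicate number as a block. The difference in share was not tested. The log2 fold change was 0.38 for DDIT3, 0.51 for SLC7A11, 0.30 for SESN2 and 0.33 for CEBPB, all higher under the siRNA1 label at each of the 3 replicate numbers. It was −0.21 for ERN1 and −0.30 for SEL1L, both lower under the siRNA1 label at each number. Without the block 0 of the 6 passed. With it, the calls of SLC7A11, SESN2, CEBPB and ERN1 did not hold in every fit that left out 1 library. TLX1 itself was higher under the siRNA1 than the siRNA2 label in the same fit (log2 fold change 1.04).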

How the results depend on the processing

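No result with a call changed direction under the alternatives run. The counts of calls between labels depended most on the replicate block. Between siRNA1 and NTC the main fit called 238 genes and 0 members. The block gave 2116 genes and 8 members (4 ATF4-branch, 4 ER). Without a filter beyond 1 count there were 590 genes and 2 members (both ATF4-branch), with DESeq2 553 genes and 2 members (1 of each branch), with only the 2 groups compared 1 member (ATF4-branch), and without the 3 libraries numbered 1 there were 75 genes. Between siRNA2 and NTC, where the main fit called 0 genes, these were 28 genes with the block, 15 genes and 1 member (ATF4-branch) without the filter, and 4 genes with DESeq2. Between siRNA1 and siRNA2 the main 201 genes became 1958 with the block and 6 members (4 ATF4-branch, 2 ER), 557 and 1 member (ATF4-branch) without the filter, 522 with DESeq2, 117 with only 2 groups and 33 without the libraries numbered 1. For both TLX1 siRNA labels against NTC the main 3 genes became 728 with the block and 4 members (2 ATF4-branch, 2 ER), 169 and 1 member (ATF4-branch) without the filter, 110 with DESeq2 and 1 without the libraries numbered 1. The summed strand columns with the block gave 51 genes and 1 member (ATF4-branch, DDIT4) between siRNA2 and NTC.

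Without the group term, 1634 genes and 4 members (1 ATF4-branch, 3 ER) passed between the libraries numbered 1 and the others, and 1175 genes and 3 members (2 ATF4-branch, 1 ER) between those numbered 2 and 3. These kept 4 of 9 and 3 of 12 calls of members.

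Leaving out 1 library at a time gave 103 (without NTC replicate 3) to 253 genes and 0 to 1 members (0 to 1 ATF4-branch, 0 to 0 ER) between siRNA1 and NTC. It gave 0 to 0 genes between siRNA2 and NTC, 72 (without siRNA1 replicate 3) to 185 genes between siRNA1 and siRNA2, and 2 to 7 genes for both labels against NTC, with 0 members in each. With the block these were 1163 (without siRNA1 replicate 1; 1326 without siRNA1 replicate 3, 1410 without NTC replicate 1) to 2979 genes and 4 to 9 members (3 to 4 ATF4-branch, 1 to 5 ER) between siRNA1 and NTC. Between siRNA2 and NTC they were 4 (without siRNA2 replicate 3; 78 without siRNA1 replicate 2, 65 without siRNA2 replicate 1) to 108 genes (without NTC replicate 1) and 0 to 1 members (0 to 1 ATF4-branch). Between siRNA1 and siRNA2 they were 980 (without siRNA1 replicate 1; 1135 without siRNA1 replicate 3) to 2387 genes and 2 to 6 members (1 to 5 ATF4-branch, 1 to 2 ER). For both labels they were 376 (without NTC replicate 3) to 1039 genes and 1 to 4 members (1 to 2 ATF4-branch, 0 to 2 ER). For replicate 1 against 2 and 3 they were 2023 (without siRNA1 replicate 1) to 4529 genes and 5 (without siRNA2 replicate 1) to 11 members (2 to 5 ATF4-branch, 3 to 7 ER). For replicate 2 against 3 they were 1953 (without siRNA1 replicate 2) to 4352 genes and 7 (without siRNA1 replicate 3) to 13 members (4 to 7 ATF4-branch, 2 to 6 ER). The cause of these shifts was not tested. What limits the data is 3 libraries a group and the low counts of PSAT1, CHAC1, VLDLR and NUPR1.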
